A study of Mus musculus with 12 samples.

Results

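The collagen VI chains are the products of 6 mouse genes, Col6a1 to Col6a6, taken by name from a table of 54347 genes measured by RNA sequencing in 12 libraries of PYMT cells. PYMT stands for polyoma middle T, an oncogene used to raise mammary tumours in mice, and the cells were grown in matrigel, a basement membrane gel. The family was chosen by its measured log2 differences in these libraries, among the largest of BMP4 over untreated cells, and by its lower level where TGFB2 was added to BMP4. The values that compare BMP4 with untreated cells, or that compare the other groups with BMP4, are therefore descriptions and carry no test here. Of the 6 chains, 3 had enough counts to be tested (Col6a1, Col6a2 and Col6a3), and Col6a4, Col6a5 and Col6a6 did not.

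The cells were in 4 groups of 3 biological replicates. BMP4-TGFB2 cells received both ligands, BMP4 cells and TGFB2 cells received 1 ligand each, and NT cells received none. Exposure lasted 3 days at 5 ng/mL per ligand, the medium was then changed, and RNA was taken 2 days later, so every value was read after the ligands had been withdrawn from the medium. All 4 groups are the same cells and carry no other treatment. What set the replicates apart is not given in the sources used here, so the p-values measure the spread between these samples, which may be technical.

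Collagen VI is a matrix protein of most tissues that assembles into beaded microfilaments around cells and next to basement membranes. Its unit is a triple helix of 3 different chains. The chains of Col6a1 and Col6a2 are 2 of them, and the remaining place is taken by that of Col6a3 or, in some tissues, of Col6a4, Col6a5 or Col6a6. The units pair and then pair again inside the cell before secretion. In the mammary gland the protein is mostly known from adipocytes and fibroblasts, and the cleaved end of the Col6a3 chain, endotrophin, has been studied in mouse mammary tumours. BMP4 and TGFB2 are ligands of 1 family whose receptors activate different sets of SMAD transcription factors.

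Library totals ran from 28543062 to 42167651 estimated counts. A set of 8 luminal epithelial markers summed to between 3513 and 4289 TPM, a level scaled for transcript length and library size, in all 12 libraries, so epithelial markers were present in every group. Single markers did differ. Against NT cells 3 of the 8 fell in BMP4-TGFB2 cells and 2 in TGFB2 cells (edgeR adjusted p under 0.05), where 12.9% and 11.1% of all tested genes fell. Levels below are in CPM, the count of a gene scaled to its library's total with no correction for length. In bulk RNA, more cells that express a gene cannot be told apart from more of its RNA in each cell.

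The Col6a1 and Col6a2 transcripts, which encode the first pair of chains, were highest in BMP4 cells and lower in BMP4-TGFB2 cells, and lower again in TGFB2 and NT cells. In BMP4-TGFB2 cells Col6a1 had 25.9, 72.2 and 29.3 CPM in replicates 1 to 3. BMP4 cells had 321, 305 and 120 CPM. TGFB2 cells had 5.74, 16.2 and 12.1 CPM, and NT cells had 8.12, 5.52 and 10.1 CPM. The lowest BMP4 library was above the highest BMP4-TGFB2 library, and all 3 BMP4-TGFB2 libraries were above every TGFB2 and NT library. The TGFB2 and NT libraries overlapped. The share of all genes whose groups lie apart was not counted, so overlap is given here and below as a description only. Group means were 42.5 ± 25.8 CPM in BMP4-TGFB2 cells, 249 ± 112 in BMP4 cells, 11.4 ± 5.28 in TGFB2 cells and 7.9 ± 2.28 in NT cells (SD, n = 3 each).

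Col6a2 followed the same order at a lower level. It had 7.43, 24.5 and 8.72 CPM in BMP4-TGFB2 cells and 103, 100 and 42.6 CPM in BMP4 cells. TGFB2 cells had 1.54, 6.02 and 4.23 CPM, and NT cells had 2.32, 0.925 and 3.32 CPM. Again no BMP4 library overlapped a BMP4-TGFB2 library, no BMP4-TGFB2 library overlapped a library of TGFB2 or NT cells, and TGFB2 and NT cells overlapped. The means were 13.5 ± 9.5, 82.1 ± 34.2, 3.93 ± 2.26 and 2.19 ± 1.2 CPM in BMP4-TGFB2, BMP4, TGFB2 and NT cells (SD, n = 3 each). The counts behind the lowest of these values were small: NT replicate 2 held 33 counts of Col6a2, against 4075 in BMP4 replicate 1.

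**Figure D1:**
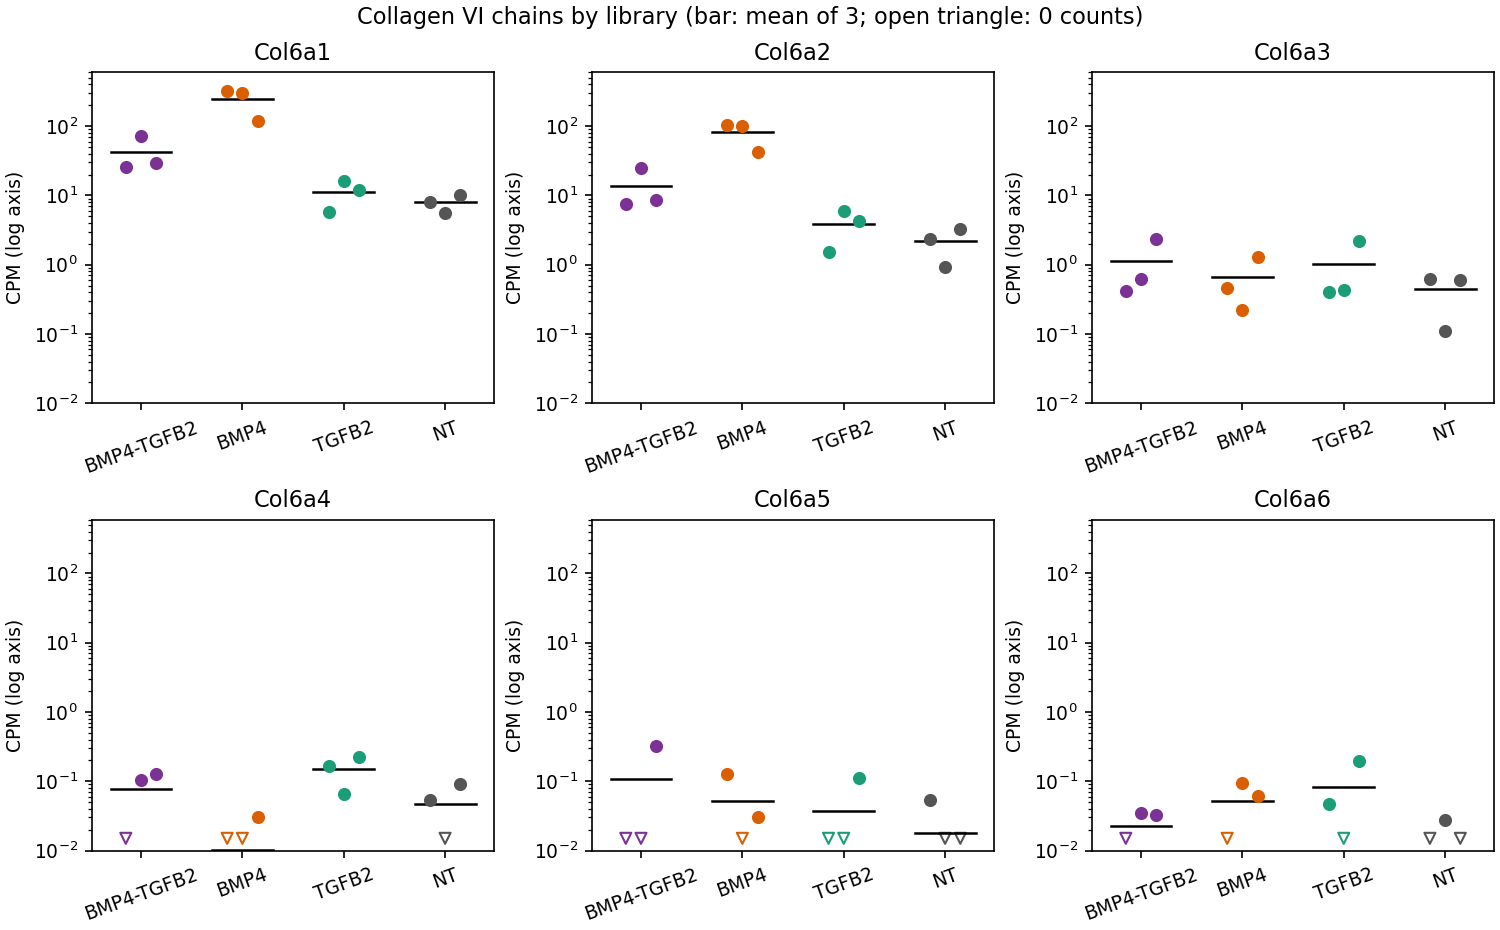
Level of each of the 6 collagen VI genes in every library, in CPM on a log axis, by group. Each point is 1 library, the bar is the mean of 3, and open triangles mark libraries with 0 counts. For Col6a1 and Col6a2 the 3 BMP4 points lie above the 3 BMP4-TGFB2 points, which lie above all TGFB2 and NT points, while Col6a3 overlaps between all groups and Col6a4 to Col6a6 stay at or near 0 counts.

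Col6a1 lies at chr10:76708792-76726168 and Col6a2 at chr10:76595762-76623630 (GRCm38), both read from the minus strand and separated by 85161 bases. The stretches just upstream of their starts are shown because the transcripts of these neighbours moved together. Each runs 5′ to 3′ on the minus strand and stops before the first base that the annotation places in an exon. Capitals mark matches to any of 5 short motifs looked for on both strands. These were the core of a BMP SMAD element, GGNGCC, the short element bound by SMAD3, CAGAC, the AP-1 site, TGANTCA, the Sp1 site, GGGCGG, and the box bound by the TATA-binding protein, TATAAA. No match overlaps another in the printed stretches, and the sequences are from RefSeq (GRCm38.p6).
Col6a1 upstream, chr10:76726169-76726294: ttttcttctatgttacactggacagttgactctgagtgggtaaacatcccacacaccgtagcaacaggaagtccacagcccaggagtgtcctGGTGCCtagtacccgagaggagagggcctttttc
Col6a2 upstream, chr10:76623631-76623880: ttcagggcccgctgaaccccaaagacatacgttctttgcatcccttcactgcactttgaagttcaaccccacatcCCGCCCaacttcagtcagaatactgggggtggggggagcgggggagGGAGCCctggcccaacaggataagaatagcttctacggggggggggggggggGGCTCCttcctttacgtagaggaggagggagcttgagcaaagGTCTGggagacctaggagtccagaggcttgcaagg
Both stretches held GGNGCC, 1 match in Col6a1 and 2 in Col6a2, but 49.7% of 32851 mouse promoter windows of 250 bases hold it too. The Col6a2 stretch also held 1 CAGAC, found in 42.2% of windows, and 1 GGGCGG, found in 32.7%. RefSeq gives Col6a2 another start as well, and the window upstream of that start held 1 GGNGCC, 3 GGGCGG and no CAGAC. Upstream of the RefSeq start of Col6a1, TGANTCA occurs once, 90 bases away and outside the printed stretch, and 6.75% of windows hold it. TATAAA was not among the letters of these windows. These matches are descriptions of the letters and show no binding.

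Between these 2 genes the annotation places 1 other gene, the lincRNA Gm35608, which averaged 0.00557 CPM over the 12 libraries. The nearest tested protein-coding genes on either side were Lss, which encodes lanosterol synthase, and Pcbp3, which encodes an RNA-binding protein. Lss fell in BMP4-TGFB2 cells against NT cells by 1.70 on the log2 scale (SE 0.42, edgeR adjusted p = 0.0132), and its log2 difference of BMP4 from NT cells was -0.77 ± 0.41 (SE, adjusted p = 0.361, or 0.008 with the replicate number as a block). Pcbp3, at a mean of 1.13 CPM, rose in BMP4 cells by 1.89 ± 0.39 (adjusted p = 0.0178) and in TGFB2 cells by 2.04 ± 0.39 (adjusted p = 0.00357), both on the log2 scale against NT cells. Of 20 alternative analyses, 7 did not call the rise of Pcbp3 in BMP4 cells (adjusted p up to 0.0851), and 3 did not call the fall of Lss (up to 0.0584), among them those without NT replicate 2. Col18a1, another collagen gene a little farther out, rose in BMP4-TGFB2 cells against NT cells by 0.96 ± 0.20 (adjusted p = 0.00405) and had a log2 difference of -0.07 ± 0.19 between BMP4 and NT cells (adjusted p = 0.911). None of these tested neighbours followed the order of the collagen VI pair across the groups. Ftcd and Spatc1l, the closest genes beside Col6a2, had too few counts to test.

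BMP4-TGFB2 against TGFB2, the effect of BMP4 in cells that also received TGFB2, shares no library with BMP4 against NT. It shares the BMP4-TGFB2 libraries with the comparison with BMP4 cells that the choice of the family also used. There Col6a1 was 3.83-fold higher (log2 difference 1.94 ± 0.51 SE) and Col6a2 3.55-fold higher (1.83 ± 0.62 SE). The libraries of the groups did not overlap for either gene, but the share of all genes without overlap was not counted. Neither passed the threshold with edgeR's quasi-likelihood test over 15319 genes: the p of Col6a1 was 0.00282 (adjusted p = 0.856) and that of Col6a2 was 0.0133 (adjusted p = 1). The background in this contrast was 0%, since no gene was called by edgeR. At an unadjusted p under 0.05 edgeR counted 508 genes (3.32%), a smaller share than that cut-off alone passes when no gene differs. By that p Col6a1 ranked 49 and Col6a2 ranked 162, ranks that are given as a description only. DESeq2 called 51 genes, Col6a1 among them (adjusted p = 0.0206) and Col6a2 not (adjusted p = 0.226). With the replicate number as a block, 10 genes were called and the adjusted p was 0.371 for Col6a1 and 0.613 for Col6a2. The 95% interval of the fold was 1.77 to 8.31 for Col6a1 and 1.38 to 9.14 for Col6a2. Without BMP4-TGFB2 replicate 2, the highest library of its group, the log2 differences were 1.32 and 1.09.

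By replicate number, the ratio of BMP4-TGFB2 to TGFB2 cells for Col6a1 was 4.5, 4.45 and 2.42, and for Col6a2 it was 4.82, 4.07 and 2.06. Both genes were above 1 in every replicate, but their profiles were close to each other, so their ratios are not separate observations. The share of all genes with such ratios was not counted. For Col6a3 the ratios were 1.02, 1.47 and 1.06. Its log2 difference was 0.19 ± 0.94 (SE, adjusted p = 1, edgeR), the fold interval ran from 0.275 to 4.72, and its libraries overlapped. Without BMP4-TGFB2 replicate 3 that difference was -0.94, and without TGFB2 replicate 3 it was 1.47.

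Against NT cells, BMP4-TGFB2 cells had higher levels of both Col6a1 and Col6a2, and TGFB2 cells were not distinguishable for either. These contrasts share the NT libraries with the contrast that picked the family. BMP4-TGFB2 against NT also holds the BMP4-TGFB2 libraries, which the choice of the family used against BMP4 cells. Its p-values are therefore not independent of that choice. In BMP4-TGFB2 cells Col6a1 rose 5.42-fold (log2 difference 2.44 ± 0.52 SE, adjusted p = 0.00575, edgeR), and Col6a2 rose 6.24-fold (2.64 ± 0.65 SE, adjusted p = 0.0121). The background was high: 26.2% of genes were called in this contrast, 13.3% as higher and 12.9% as lower, so 2 of 3 tested chains called is read beside that share. With the replicate block 6328 genes were called, and the edgeR adjusted p was 0.00888 for Col6a1 and 0.0201 for Col6a2. Col6a1 stayed under the threshold in all 20 alternative analyses, with adjusted p up to 0.0325, though without BMP4-TGFB2 replicate 2 its log2 difference was 1.82. Col6a2 lost its call in 3 of 20: without a filter on low counts (adjusted p = 0.0589), without NT replicate 2 (0.0512) and without BMP4-TGFB2 replicate 2 (0.0502).

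In TGFB2 cells the difference from NT cells was 1.41-fold for Col6a1 (0.50 ± 0.50 SE on the log2 scale, adjusted p = 0.521, edgeR) and 1.76-fold for Col6a2 (0.81 ± 0.63 SE, adjusted p = 0.398). The 95% interval of the fold ran from 0.658 to 3.03 for Col6a1 and from 0.668 to 4.63 for Col6a2, so both a fall and a rise lie inside them. In this contrast 22.4% of all genes were called, 11.3% as higher and 11.1% as lower, and none of the 3 tested chains was among them. By replicate number the ratio for Col6a1 was 0.707, 2.94 and 1.21, below 1 in replicate 1 and above 1 in the other two.

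BMP4 cells differed from NT cells by 31.8-fold for Col6a1 (log2 difference 4.99 ± 0.58 SE) and by 38-fold for Col6a2 (5.25 ± 0.71 SE). These values chose the family and are given without a test. They ranked 27 and 21 from the top among the 15319 genes, ordered by log2 difference. In the same contrast 5.42% of genes were called, 3.19% as higher and 2.23% as lower. That is 830 genes, and 2364 with the replicate number as a block. The ratio by replicate number varied widely. For Col6a1 it was 39.5, 55.2 and 11.9, and for Col6a2 44.6, 109 and 12.8. Replicate 3 gave the smallest ratio for both genes, since its BMP4 library was the lowest of the group and its NT library the highest.

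The effect of adding TGFB2 to BMP4 is given as a description as well, because it shares the BMP4 libraries. BMP4-TGFB2 cells had 5.88-fold less Col6a1 than BMP4 cells (log2 difference -2.56 ± 0.51 SE) and 6.09-fold less Col6a2 (-2.61 ± 0.62 SE). In this contrast 9.1% of genes were called, 4.18% as higher and 4.92% as lower. That is 1394 genes, and 3446 with the replicate block. By replicate number, BMP4-TGFB2 cells were lower by 12.4-, 4.22- and 4.09-fold for Col6a1 and by 13.9-, 4.1- and 4.88-fold for Col6a2. Replicate 1 gave the largest drop for both genes. Without BMP4-TGFB2 replicate 2 the log2 differences were -3.17 and -3.35. For Col6a3 the difference was 0.75 ± 0.95, with overlapping libraries.

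Set side by side, BMP4 came with 31.8-fold more Col6a1 when given alone and 3.83-fold more when TGFB2 was present. For Col6a2 the folds were 38 and 3.55. The interaction, the log2 change that BMP4 gave on top of TGFB2 minus the log2 change it gave alone, was -3.05 ± 0.71 (SE) for Col6a1, -3.42 ± 0.88 for Col6a2 and -0.43 ± 1.34 for Col6a3. It contains the picking contrast and has no test here. The share of genes called for an interaction by edgeR was 0.15%, 23 in all, with 0.0457% positive and 0.104% negative. Without BMP4-TGFB2 replicate 2 the interaction was -3.67 for Col6a1 and -4.16 for Col6a2, and for Col6a3 it ran from -1.56 to 0.85 as single libraries were left out.

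**Figure D2:**
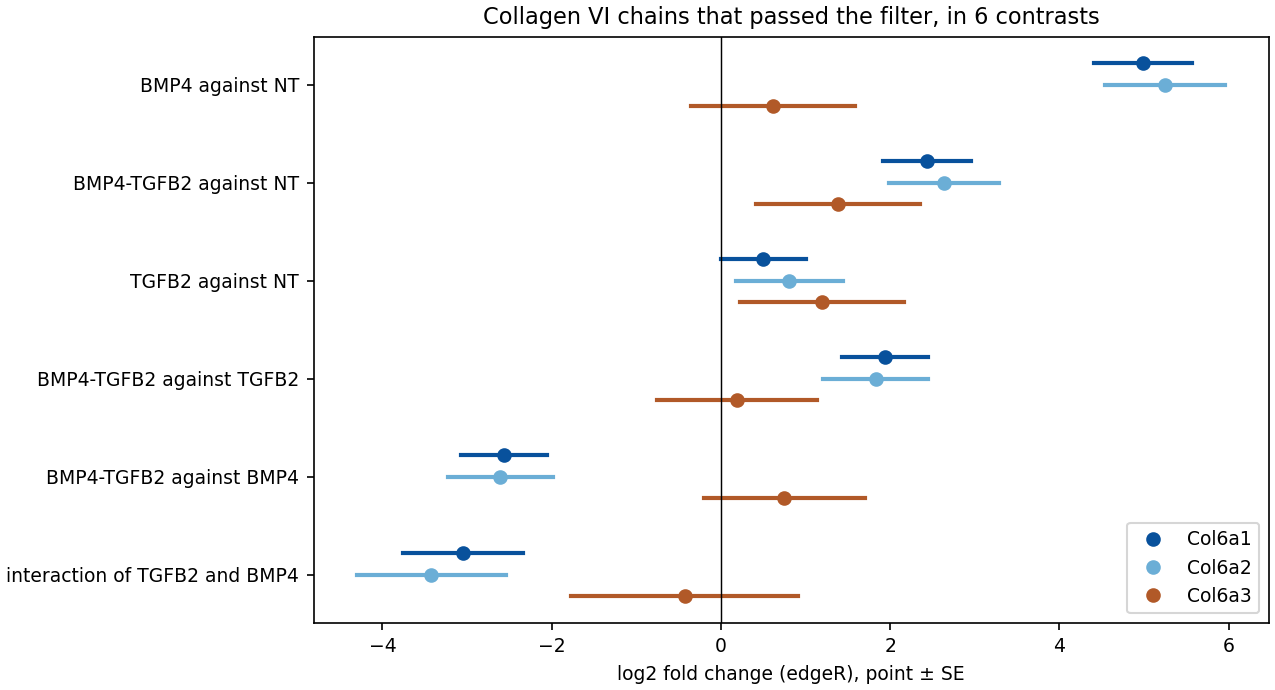
log2 fold change of Col6a1, Col6a2 and Col6a3 in 5 contrasts and for the interaction, from edgeR, with bars of 1 SE on each side. In every row Col6a1 and Col6a2 lie within 1 SE of each other, from 4.99 and 5.25 in BMP4 against NT cells to -3.05 and -3.42 for the interaction, and Col6a3 has the widest bars.

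Col6a3, whose chain usually completes the unit, was low and variable in all groups. It had 0.413, 0.631 and 2.36 CPM in BMP4-TGFB2 cells, 0.456, 0.223 and 1.31 CPM in BMP4 cells, 0.403, 0.428 and 2.23 CPM in TGFB2 cells, and 0.613, 0.112 and 0.599 CPM in NT cells. Replicate 3 was the highest library in each of the 3 treated groups, and all groups overlapped. These values rest on 4 to 79 counts per library. Its log2 difference from NT cells was 1.38 ± 0.97 in BMP4-TGFB2 cells (SE, adjusted p = 0.328, edgeR) and 1.19 ± 0.97 in TGFB2 cells (adjusted p = 0.418), and 0.62 ± 0.97 in BMP4 cells, given without a test. The fold interval in TGFB2 cells, 0.526 to 9.86, leaves the direction unresolved. Replicate 3 weighed on each of these values: without BMP4-TGFB2 replicate 3 the log2 difference in BMP4-TGFB2 cells was 0.25, without BMP4 replicate 3 that in BMP4 cells was -0.35, and without TGFB2 replicate 3 that in TGFB2 cells was -0.1. The log2 CPM of Col6a3 spread by 1.21 within groups (pooled SD), against 0.707 for Col6a1 and 0.887 for Col6a2.

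Col6a3 lies apart from the other chains at chr1:90765923-90843971 (GRCm38, minus strand). Its upstream stretch is printed for comparison with the pair above, since this gene did not move with them. Capitals mark the same motifs.
Col6a3 upstream, chr1:90843972-90844221: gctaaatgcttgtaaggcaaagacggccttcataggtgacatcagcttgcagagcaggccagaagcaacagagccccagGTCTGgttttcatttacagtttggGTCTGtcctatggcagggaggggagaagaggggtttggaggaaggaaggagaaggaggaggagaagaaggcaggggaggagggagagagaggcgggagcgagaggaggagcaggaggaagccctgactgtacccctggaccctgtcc
It held 2 matches to CAGAC, found in 42.2% of windows, and none to GGNGCC, found in 49.7%. Col6a6, which had few counts in every group, has 2 matches to GGNGCC in the window upstream of its RefSeq start. Whether either motif has a part in these levels was not tested. None of the tested genes beside it, Cops8, Ackr3, Mlph and Rab17, was called between BMP4 and NT cells (adjusted p between 0.277 and 0.679, edgeR). With the replicate block Mlph and Rab17 were called as lower (adjusted p = 0.00403 and 0.0438).

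Col6a4, Col6a5 and Col6a6 lie in a row on chromosome 9 and encode chains that can stand in for that of Col6a3. They had between 0 and 10 counts per library. Col6a4 totalled 7 counts over the 3 BMP4-TGFB2 libraries, 1 over the BMP4 libraries, 17 over the TGFB2 libraries and 5 over the NT libraries. Col6a5 totalled 10, 6, 4 and 2 counts and Col6a6 2, 5, 9 and 1 counts in the same order of groups. At these depths 3 counts, the limit that a count of 0 allows, correspond to 0.0711 to 0.105 CPM per library, and most values were at or under it. No fold is given for these chains. In mouse, unlike human, Col6a4 is an intact gene.

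The makeup of the family was compared per length, in TPM, which divides by transcript length. Col6a1 and Col6a2 together made up 91.7% to 100% of the summed TPM of the 6 chains in each library. That sum was 12.1, 39 and 14.6 TPM in BMP4-TGFB2 cells and 155, 157 and 61.2 TPM in BMP4 cells. It was 2.76, 8.41 and 6.9 TPM in TGFB2 cells and 4.39, 2.42 and 5.37 TPM in NT cells. The 4 chains that can complete the unit, Col6a3 to Col6a6, summed to 0.0662, 0.322 and 0.467 TPM in BMP4-TGFB2 cells and to 0.0967, 0.0666 and 0.618 TPM in BMP4 cells. In TGFB2 cells they summed to 0.107, 0.153 and 0.574 TPM and in NT cells to 0.343, 0.0422 and 0.288 TPM. The sum of all chains was thus highest in the BMP4 libraries, while the sum over Col6a3 to Col6a6 overlapped between all groups. They amounted to 5 to 98 counts per library.

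Col6a3 made up 1.15% ± 1.25 of the summed TPM in BMP4-TGFB2 cells, 0.327% ± 0.498 in BMP4 cells, 3.19% ± 2.08 in TGFB2 cells and 3.12% ± 1.86 in NT cells (SD, n = 3 each). The mean share was lowest in BMP4 cells, where the sum was highest, and the CPM of Col6a3 overlapped between all groups. BMP4 replicate 3, at 0.903%, was above BMP4-TGFB2 replicates 1 and 2, at 0.546% and 0.317%. Without replicate 3 the mean share was 0.432% in BMP4-TGFB2 cells, 0.0396% in BMP4 cells and 2% in TGFB2 cells.

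The ratio of Col6a2 to Col6a1 stayed close to constant while the levels spanned more than an order of magnitude. It was 0.313 ± 0.0314 in BMP4-TGFB2 cells, 0.343 ± 0.0161 in BMP4 cells, 0.335 ± 0.0499 in TGFB2 cells and 0.259 ± 0.082 in NT cells (TPM ratio, SD, n = 3 each). The ranges overlapped between every pair of groups except BMP4 and NT cells, where it ran from 0.33 to 0.361 and from 0.168 to 0.327. The lowest single ratio, 0.168, came from NT replicate 2, the library with 33 counts of Col6a2. The absolute ratio depends on the lengths used: with counts divided by the merged exon lengths of 4380 bases for Col6a1 and 8326 bases for Col6a2 it was 0.162, 0.176, 0.173 and 0.137 in the same order of groups. In each group and by either length, Col6a2 was below Col6a1.

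**Figure D3:**
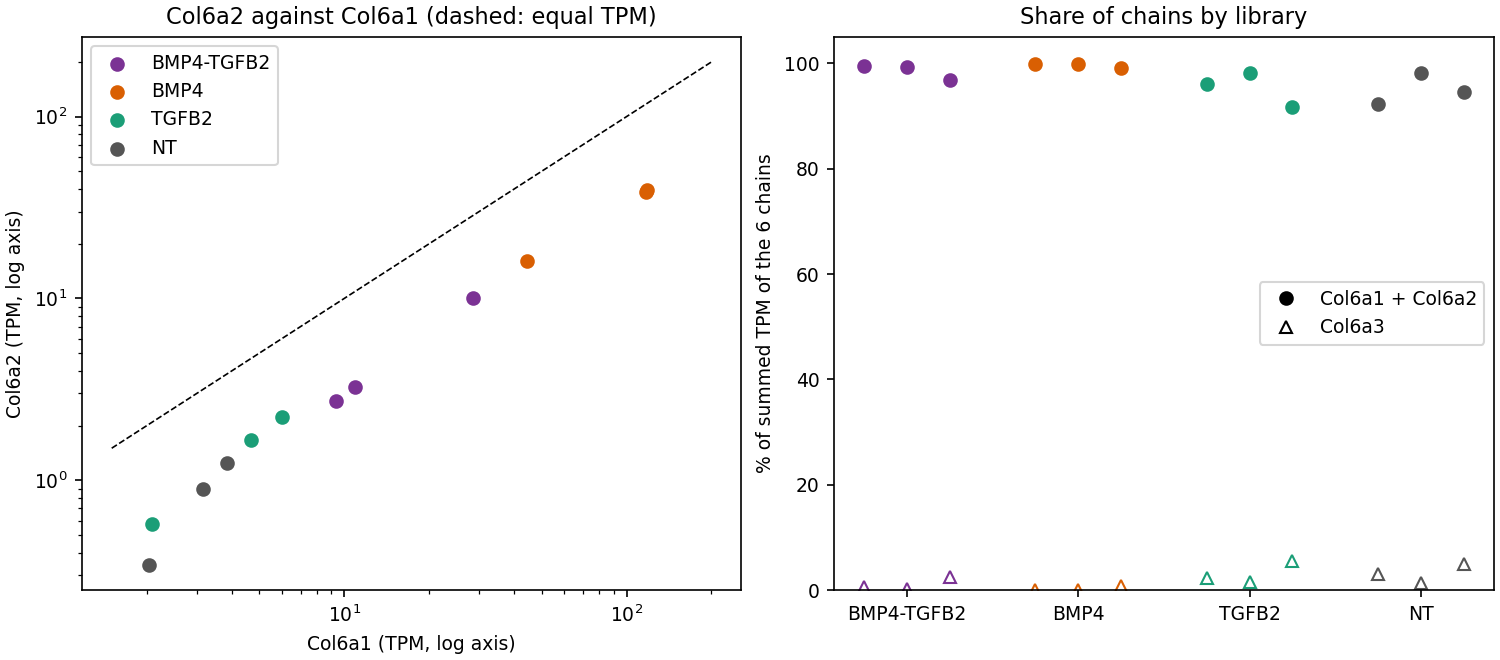
Left, Col6a2 against Col6a1 in TPM, both on log axes, 1 point per library, with a dashed line at equal TPM. Right, the share of the summed TPM of the 6 chains taken by Col6a1 and Col6a2 together (filled circles) and by Col6a3 (open triangles), by library. The points on the left run parallel to the dashed line at a ratio of 0.168 to 0.369, and on the right the filled circles stay between 91.7% and 100%.

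Among 44 collagen genes ordered by mean TPM, Col6a1 ranked 7 in BMP4-TGFB2 cells, 2 in BMP4 cells, 13 in TGFB2 cells and 11 in NT cells. Col6a2 ranked 11, 5, 19 and 15. In BMP4 cells only Col18a1, a basement membrane collagen, stood above Col6a1, at 159 ± 22.3 TPM against 93 ± 42 TPM for Col6a1 (SD, n = 3). The basement membrane chain Col4a2 followed at 75.1 ± 10.7 TPM. Col6a3 never ranked above 26.

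Of 38 other collagen genes, 30 were tested. Against NT cells, 10 rose and 7 fell in BMP4-TGFB2 cells, 4 rose and 1 fell in BMP4 cells, and 12 rose and 6 fell in TGFB2 cells. Over all tested genes 13.3% rose and 12.9% fell in BMP4-TGFB2 cells, 3.19% rose and 2.23% fell in BMP4 cells, and 11.3% rose and 11.1% fell in TGFB2 cells. The median log2 differences of the collagens were 0.90, 0.54 and 1.35, against 0.01, 0.00 and 0.01 over all tested genes. With the replicate block, 9 rose and 2 fell in BMP4 cells, where 1310 of all 15319 genes rose and 1054 fell. The 4 that rose in BMP4 cells, named after their values were seen, were Col8a2, Col11a2, Col12a1 and Col15a1, and of 20 alternative analyses 2, 2, 6 and 12 did not call them there (adjusted p up to 0.062, 0.0782, 0.114 and 0.354). Without NT replicate 2 the calls of Col11a2, Col12a1 and Col15a1 were lost. Col8a2, Col12a1 and Col15a1 rose in TGFB2 cells too, by 4.56 ± 0.59, 3.47 ± 0.69 and 4.61 ± 0.57 on the log2 scale (SE, adjusted p = 0.000323, 0.00483 and 0.000248, edgeR). Col11a2, a chain of a fibrillar collagen best known from cartilage, was not called there. Its log2 difference from NT cells was 3.28 ± 0.62 in BMP4 cells (adjusted p = 0.0116) and 0.58 ± 0.59 in TGFB2 cells (adjusted p = 0.529). It fell by 2.50 ± 0.59 in BMP4-TGFB2 cells against BMP4 cells (adjusted p = 0.0227), a call that 5 of 20 alternative analyses did not make (adjusted p up to 0.136).

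Receptors that bind collagen VI, or collagens in general, were read next. Of 10 listed, all tested, 5 rose and 1 fell in BMP4-TGFB2 cells, 1 rose in BMP4 cells, and 5 rose in TGFB2 cells, each against NT cells. The shares that rose over all genes were 13.3%, 3.19% and 11.3%. The median log2 differences of the receptors were 0.89, 0.45 and 0.80. With the replicate block, 2 rose in BMP4 cells, where 1310 of all 15319 genes rose. None was called between BMP4-TGFB2 and TGFB2 cells. Whether BMP4 and TGFB2 cells differ in these counts was not tested.

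Antxr2, which encodes a receptor that takes up collagen VI from the matrix, averaged 74.7 ± 10.7 CPM in BMP4-TGFB2 cells, 25.2 ± 2.81 in BMP4 cells, 70.5 ± 17.6 in TGFB2 cells and 17 ± 5.25 in NT cells (SD, n = 3 each). It rose by 2.15 ± 0.24 in BMP4-TGFB2 cells (SE, adjusted p = 7.94e-05, edgeR) and by 2.03 ± 0.23 in TGFB2 cells (adjusted p = 0.000157) on the log2 scale. Itga2, an integrin alpha subunit that binds collagens, had group means of 153 ± 39.2, 56.4 ± 30, 132 ± 7.75 and 27.2 ± 6.44 CPM in the same order. It rose by 2.51 ± 0.37 in BMP4-TGFB2 cells (adjusted p = 0.000658) and by 2.26 ± 0.37 in TGFB2 cells (adjusted p = 0.00147), and its difference in BMP4 cells was 1.08 ± 0.36 (adjusted p = 0.116). Itgb1, the beta subunit of the collagen-binding integrins, rose by 0.99 ± 0.24 in BMP4-TGFB2 cells (adjusted p = 0.0104) and by 0.89 ± 0.24 in TGFB2 cells (adjusted p = 0.0197). The second of these calls was lost without NT replicate 2 or without TGFB2 replicate 3 (adjusted p up to 0.0807).

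Ddr1, a receptor tyrosine kinase for collagens, was the receptor called in BMP4 cells, where it rose by 0.74 ± 0.17 on the log2 scale (SE, adjusted p = 0.0311, edgeR). It also rose by 0.86 ± 0.17 in BMP4-TGFB2 cells (adjusted p = 0.00404) and by 0.68 ± 0.17 in TGFB2 cells (adjusted p = 0.0168). The call in BMP4 cells was lost without NT replicate 2, NT replicate 3, BMP4 replicate 1 or BMP4 replicate 2 (adjusted p up to 0.148), and the call in TGFB2 cells without 3 single libraries (up to 0.0782). Itga10, an integrin alpha subunit known from cartilage, fell by 2.58 ± 0.50 in BMP4-TGFB2 cells (adjusted p = 0.00291), at group means of no more than 2.23 CPM.

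Among 16 matrix proteins that bind collagen VI or lie beside it, 14 were tested. Against NT cells, 2 rose in BMP4-TGFB2 cells, 1 rose in BMP4 cells and 3 rose in TGFB2 cells, and none fell. Over all genes 13.3% rose in BMP4-TGFB2 cells, 3.19% in BMP4 cells and 11.3% in TGFB2 cells. With the replicate block, 3 rose in BMP4 cells, where 1310 of all 15319 genes rose. Fn1, which encodes fibronectin, was called in all 3 contrasts. It averaged 3159 ± 1375 CPM in BMP4-TGFB2 cells, 1618 ± 574 in BMP4 cells, 3660 ± 1294 in TGFB2 cells and 343 ± 156 in NT cells (SD, n = 3 each). Its log2 rises were 3.22 ± 0.49 (SE, adjusted p = 0.000718, edgeR), 2.27 ± 0.47 (adjusted p = 0.0181) and 3.40 ± 0.49 (adjusted p = 0.000674) in BMP4-TGFB2, BMP4 and TGFB2 cells. The BMP4 call was lost without NT replicate 2, without BMP4 replicate 3 or without the filter (adjusted p up to 0.0841). Col1a1, a chain of fibrillar collagen I, rose by 1.73 ± 0.32 in BMP4-TGFB2 cells (adjusted p = 0.00226) and by 2.14 ± 0.32 in TGFB2 cells (adjusted p = 0.000783), at group means of at most 7.29 CPM. Col14a1 was called in TGFB2 cells (2.04 ± 0.65, adjusted p = 0.0428), but 13 of 20 alternative analyses did not call it. Matn4, a matrilin of the kind that links collagen VI to other matrix proteins, had a log2 difference of 0.05 ± 0.38 in BMP4-TGFB2 cells (adjusted p = 0.937), 0.12 ± 0.38 in BMP4 cells (adjusted p = 0.924) and 1.08 ± 0.38 in TGFB2 cells (adjusted p = 0.0623).

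Of 25 genes for the folding, secretion and processing of collagens, 24 were tested. Against NT cells, 12 rose and 2 fell in BMP4-TGFB2 cells, 3 rose and 1 fell in BMP4 cells, and 12 rose and 2 fell in TGFB2 cells. Over all genes 13.3% rose and 12.9% fell, 3.19% rose and 2.23% fell, and 11.3% rose and 11.1% fell in the same order of groups. The median log2 differences of these genes were 0.66, 0.40 and 0.83. With the replicate block, 6 rose and 3 fell in BMP4 cells, where 1310 of all 15319 genes rose and 1054 fell. Bmp1, a proteinase that trims procollagens, averaged 469 ± 32 CPM in BMP4-TGFB2 cells, 170 ± 12.1 in BMP4 cells, 511 ± 22.2 in TGFB2 cells and 95.2 ± 11.3 in NT cells (SD, n = 3 each). It rose by 2.31 ± 0.11 (SE, adjusted p = 1.21e-06, edgeR), 0.86 ± 0.11 (adjusted p = 0.00156) and 2.41 ± 0.11 (adjusted p = 1.22e-06) on the log2 scale in BMP4-TGFB2, BMP4 and TGFB2 cells. Plod1, a lysyl hydroxylase, rose by 1.61 ± 0.13 in BMP4-TGFB2 cells (adjusted p = 1.45e-05) and by 1.68 ± 0.13 in TGFB2 cells (adjusted p = 1.83e-05). P4ha1, a subunit of prolyl hydroxylase, rose by 1.62 ± 0.21 and 1.78 ± 0.21 in the same groups (adjusted p = 0.000242 and 0.000187). Furin, a proprotein convertase, rose by 1.33 ± 0.12 and 1.19 ± 0.12 (adjusted p = 2.51e-05 and 6.02e-05).

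In BMP4 cells the log2 rises of Plod1 and Furin were smaller, 0.57 ± 0.13 and 0.45 ± 0.12 (SE, adjusted p = 0.0265 and 0.0466, edgeR), and 7 and 14 of 20 alternative analyses did not call them (adjusted p up to 0.12 and 0.196). The difference of P4ha1 in BMP4 cells was 0.53 ± 0.21 (adjusted p = 0.188, or 0.0257 with the replicate block). Of the 4 genes of this list above 100 TPM in every library, 3 were not called in any contrast. P4hb, the disulfide isomerase subunit of prolyl hydroxylase, averaged 1758 TPM in BMP4-TGFB2 cells, 1837 in BMP4 cells, 1683 in TGFB2 cells and 1703 in NT cells. Ppib, a proline isomerase, averaged 381, 351, 382 and 363 TPM in the same order, and Mmp14, a membrane metalloproteinase, 174, 199, 164 and 171 TPM. Colgalt1, a galactosyltransferase that modifies hydroxylysine of collagens, averaged 341, 288, 389 and 223 TPM. It rose against NT cells by 0.64 ± 0.17 in BMP4-TGFB2 cells (adjusted p = 0.0177) and by 0.81 ± 0.17 in TGFB2 cells (adjusted p = 0.00579), and its log2 difference was 0.42 ± 0.17 in BMP4 cells (adjusted p = 0.203). The call in BMP4-TGFB2 cells was lost without NT replicate 2, NT replicate 3, BMP4-TGFB2 replicate 1 or BMP4-TGFB2 replicate 2 (adjusted p up to 0.0792).

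**Figure D4:**
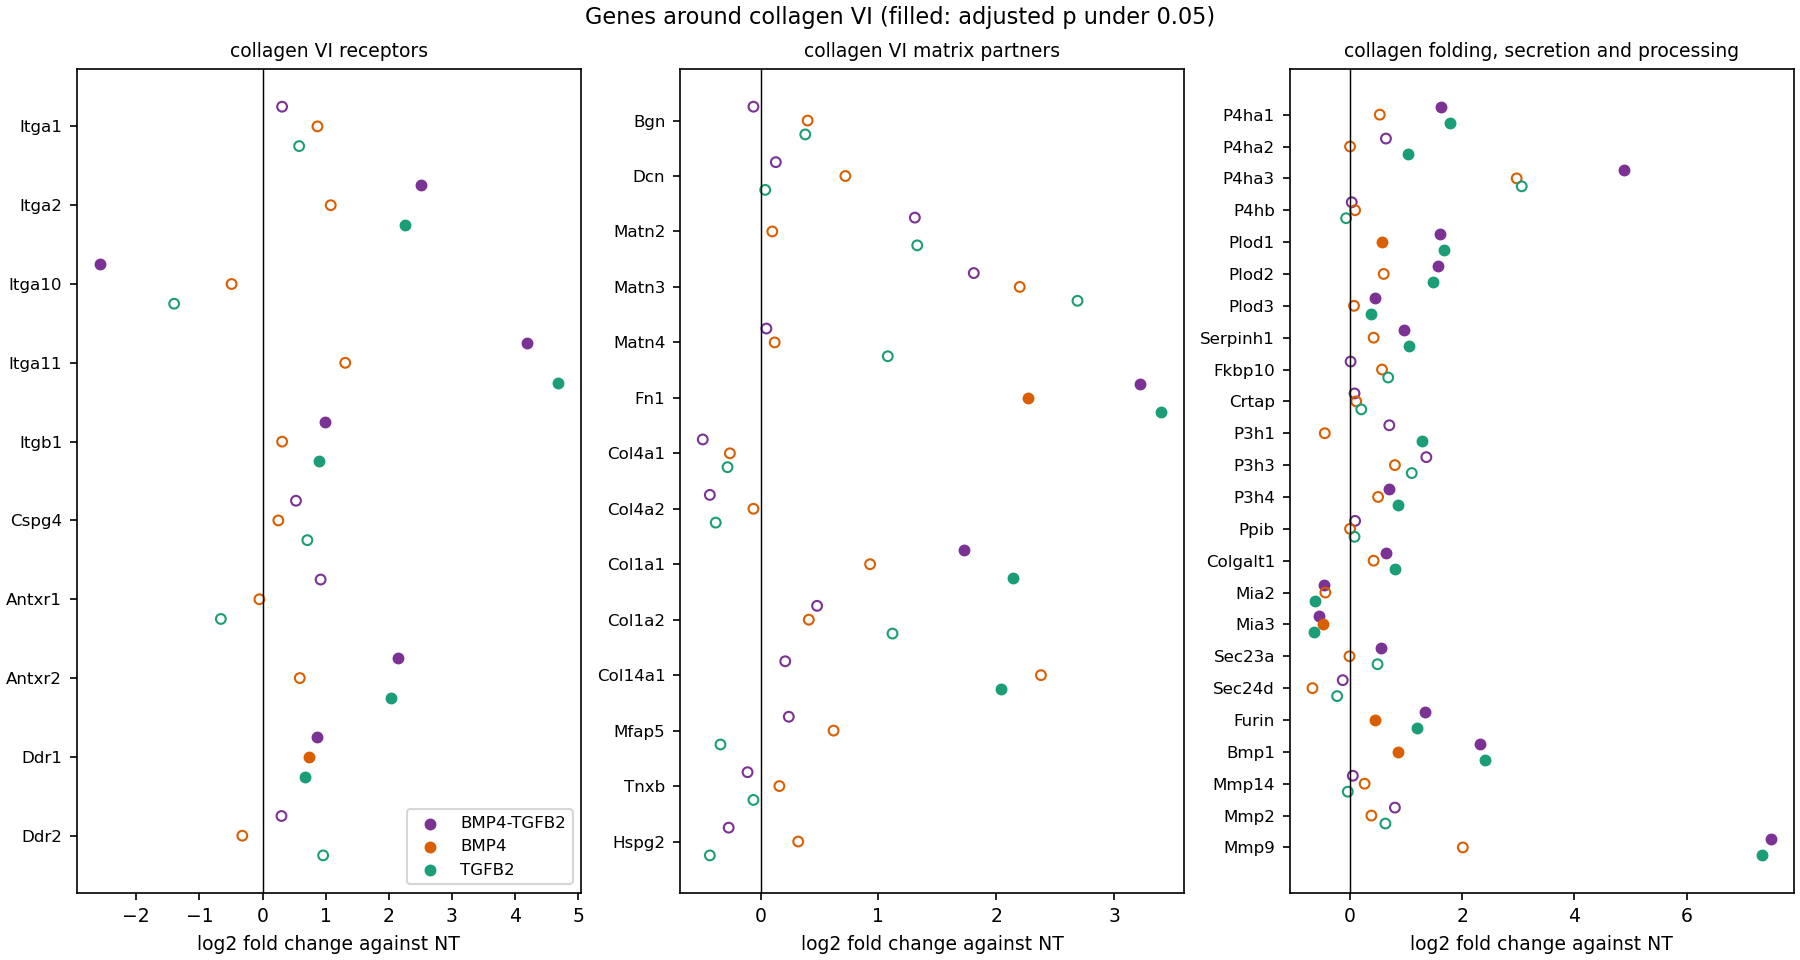
log2 fold change against NT cells of the tested collagen VI receptors, matrix partners and folding, secretion and processing genes, with 1 row per gene and 1 point each for BMP4-TGFB2, BMP4 and TGFB2 cells. Filled points have an adjusted p under 0.05 (edgeR). Filled points are mostly those of BMP4-TGFB2 and TGFB2 cells, with 5, 2 and 12 rises in BMP4-TGFB2 cells, 1, 1 and 3 in BMP4 cells and 5, 3 and 12 in TGFB2 cells.

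A list of 12 known targets of the BMP SMADs was set beside the chains as a readout of the ligand. Against NT cells, 7 rose in BMP4-TGFB2 cells, 7 rose in BMP4 cells, and 4 rose and 2 fell in TGFB2 cells. The shares over all genes were 13.3%, 3.19% and 11.3% for rises and 11.1% for falls in TGFB2 cells. The block raised the count in BMP4 cells to 9, adding Id2 and Bambi. It raised the rises over all 15319 genes there from 489 to 1310. Smad6, an inhibitory SMAD, averaged 57.7 ± 10.9 CPM in BMP4-TGFB2 cells, 73.8 ± 17.3 in BMP4 cells, 30.3 ± 3.71 in TGFB2 cells and 10.7 ± 3.19 in NT cells (SD, n = 3 each). Id1, an inhibitor of basic helix-loop-helix factors, averaged 365 ± 39.4, 419 ± 59.8, 256 ± 38.8 and 196 ± 29.6 CPM in the same order. Between BMP4-TGFB2 and BMP4 cells the log2 difference was -0.36 ± 0.23 for Smad6 (SE, adjusted p = 0.382, edgeR) and -0.21 ± 0.16 for Id1 (adjusted p = 0.469), beside -2.56 ± 0.51 for Col6a1. Other targets differed there. Over the list 1 rose and 2 fell in BMP4-TGFB2 against BMP4 cells, where 4.18% of all genes rose and 4.92% fell. With the replicate block 2 of the list rose and 3 fell, where 1638 of all 15319 genes rose and 1808 fell. Between BMP4-TGFB2 and TGFB2 cells the log2 difference was 0.96 ± 0.23 for Smad6 (adjusted p = 0.723) and 0.55 ± 0.16 for Id1 (adjusted p = 0.961), and none of the 12 was called there. With the replicate block 1 of the 12, Id2, was called in that contrast (edgeR adjusted p = 0.00649), where 10 of all 15319 genes were called.

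Atoh8, a transcription factor gene named after its values were seen, averaged 16.5 ± 4.56 CPM in BMP4-TGFB2 cells, 64 ± 4.91 in BMP4 cells, 5.72 ± 3.35 in TGFB2 cells and 23.9 ± 5.59 in NT cells (SD, n = 3 each). Its log2 difference of BMP4-TGFB2 from BMP4 cells was -1.96 ± 0.36 (SE, adjusted p = 0.00629, edgeR), the closest of the called targets to that of Col6a1. In other contrasts Atoh8 was unlike Col6a1. Between TGFB2 and NT cells its log2 difference was -2.10 ± 0.36 (adjusted p = 0.00196), where that of Col6a1 was 0.50 ± 0.50. Its interaction was 0.13 ± 0.49 (adjusted p = 0.988), beside -3.05 ± 0.71 for Col6a1. Id2, another inhibitor of basic helix-loop-helix factors, averaged 277 ± 46.5, 408 ± 67.8, 136 ± 20.9 and 309 ± 13.1 CPM in the same order. It fell by 1.21 ± 0.16 in TGFB2 cells against NT cells (adjusted p = 0.000411). In BMP4-TGFB2 against BMP4 cells it fell by 0.57 ± 0.16 (adjusted p = 0.0487), a call that 15 of 20 alternative analyses did not make (adjusted p up to 0.161). Id3, of the same family, averaged 264 ± 28.2, 416 ± 24.2, 141 ± 51.8 and 128 ± 39.3 CPM, and between BMP4-TGFB2 and BMP4 cells its log2 difference was -0.67 ± 0.26 (adjusted p = 0.139).

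Smad7, an inhibitory SMAD, and Bambi, a pseudoreceptor, were highest with both ligands, unlike the collagen VI pair. Smad7 averaged 206 ± 10.4 CPM in BMP4-TGFB2 cells, 136 ± 8.12 in BMP4 cells, 146 ± 14.3 in TGFB2 cells and 46.5 ± 8.37 in NT cells (SD, n = 3 each). It rose by 0.58 ± 0.14 on the log2 scale in BMP4-TGFB2 against BMP4 cells (SE, adjusted p = 0.0214, edgeR). That call was lost without BMP4 replicate 1, BMP4 replicate 2 or any 1 BMP4-TGFB2 library (adjusted p up to 0.1). Bambi averaged 18 ± 6.41, 7.04 ± 3.46, 9.74 ± 3.37 and 2.78 ± 0.531 CPM in the same order of groups, and in BMP4-TGFB2 against BMP4 cells its log2 difference was 1.34 ± 0.41 (adjusted p = 0.064, or 0.0108 with the replicate block).

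The genes whose profile over the 12 libraries was most like that of Col6a1 were found by the root mean square difference of centred log2 CPM. Col6a2 was the nearest of all tested genes to Col6a1, at 0.27 log2 units, and Col6a1 the nearest to Col6a2. The next was Cyp26b1, which encodes an enzyme that degrades retinoic acid, at 0.86 from Col6a1. Adgrf2, Rarres1, Dlx3, Sprr2h, Fbp2 and Wnt4 followed, at 0.89 to 0.96. The median over all tested genes was 2.06, and Col6a3 lay at 2.25. Of the 8 nearest genes, 6 were shared by Col6a1 and Col6a2, and Wnt11 was the second nearest to Col6a2, at 0.94. With a prior count of 0.5 in place of 2, 5 of the 8 nearest to Col6a1 and 6 of the 8 nearest to Col6a2 were kept, so the order among the low genes depends on that setting.

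Cyp26b1 averaged 3.19 ± 1.56 CPM in BMP4-TGFB2 cells, 28.7 ± 5.24 in BMP4 cells, 1.16 ± 0.745 in TGFB2 cells and 1.43 ± 0.9 in NT cells (SD, n = 3 each). Wnt4, a secreted signalling protein, averaged 66.4 ± 45.2, 289 ± 177, 33.5 ± 23.2 and 29.9 ± 7.94 CPM in the same order. Wnt11, another Wnt ligand, averaged 6.12 ± 1.32, 14.2 ± 3.89, 0.807 ± 0.301 and 0.29 ± 0.242 CPM. Adgrf2, Rarres1, Dlx3, Sprr2h and Fbp2 had group means of at most 3.51 CPM. These genes were chosen for their likeness, so their levels are descriptions.

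**Figure D5:**
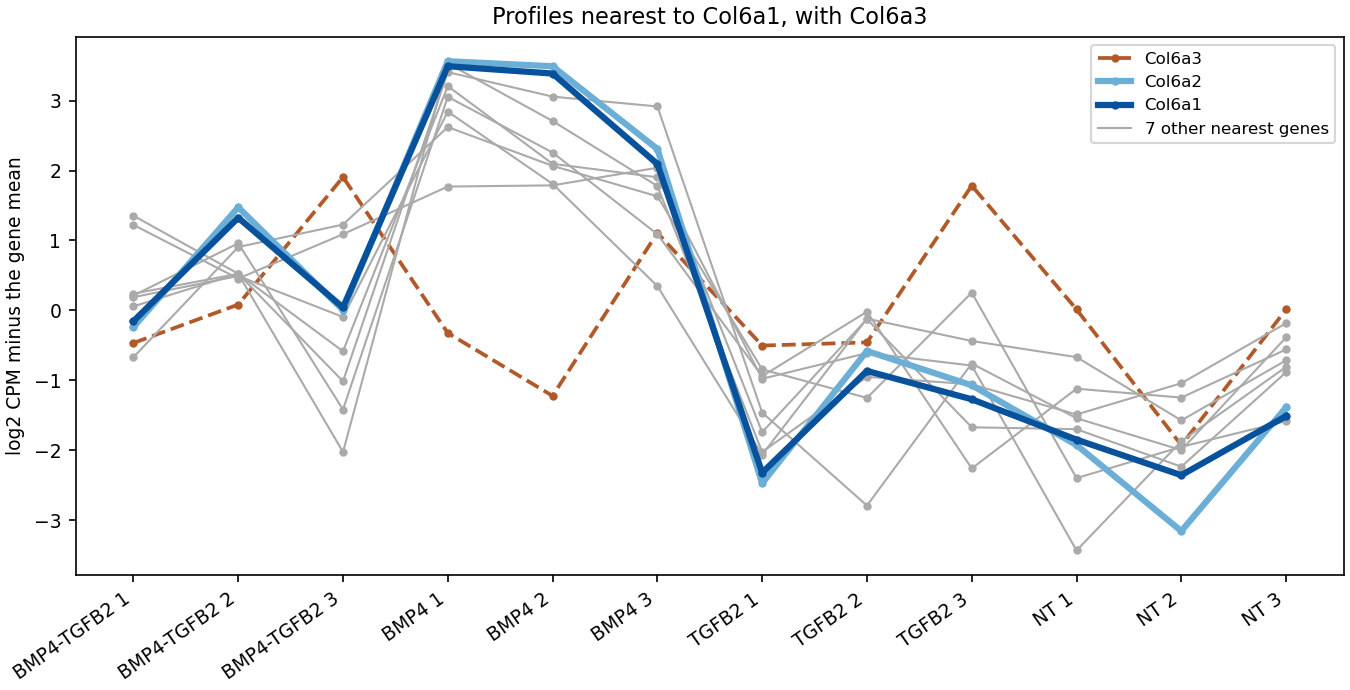
Profile of Col6a1, Col6a2, the 7 other genes nearest to Col6a1 and Col6a3 over the 12 libraries, as log2 CPM minus the gene's mean. The lines of Col6a1 and Col6a2 lie on each other, with a root mean square difference of 0.27, the grey lines lie at 0.86 to 0.96 and the dashed line of Col6a3 at 2.25.

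Markers of other cells were read beside these results, since fibroblasts and adipocytes make collagen VI in the mammary gland. The 10 fibroblast markers summed to 9.12, 6.64 and 16.1 TPM in BMP4-TGFB2 cells, 9.56, 3.15 and 15 TPM in BMP4 cells, 10.4, 10.6 and 16.8 TPM in TGFB2 cells and 6.11, 2.68 and 10 TPM in NT cells. The list holds Col1a1, Col1a2, Col3a1 and Dcn, which other lists above hold too. None of the 10 had 0 counts in every library of a group. None of the 9 tested was called in BMP4 cells against NT cells, where 5.42% of all genes were called. Their median log2 difference there was 0.72, against 0.00 over all tested genes. With the replicate block 2364 genes were called, Col1a1 among them (log2 rise 0.94, edgeR adjusted p = 0.0135). BMP4 replicate 2 had 118 TPM of Col6a1 with the smallest fibroblast sum of its group, and TGFB2 replicate 3 had 4.66 TPM of Col6a1 with the largest sum of all libraries. NT replicate 2 had the lowest of all libraries in both, with a fibroblast sum of 2.68 TPM and 2.03 TPM of Col6a1. The part of fibroblasts in the Col6a1 values was not tested. Replicate 3 had the highest fibroblast sum in each of the 4 groups and the highest Col6a3 in each of the 3 treated groups. Whether the 2 are linked was not tested. Against NT cells 3 fibroblast markers rose in BMP4-TGFB2 cells and 5 in TGFB2 cells, where 13.3% and 11.3% of all genes rose.

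The 5 pericyte markers summed to 24.7, 43.4 and 12.7 TPM in BMP4-TGFB2 cells, 43, 32.5 and 17.6 TPM in BMP4 cells, 21.6, 32.6 and 13.9 TPM in TGFB2 cells and 24.3, 14 and 14.9 TPM in NT cells, mostly from Notch3. In each of the 3 treated groups the library with the highest pericyte sum was also the one with the most Col6a1 in CPM, and in NT cells it was not. In TPM this held in BMP4-TGFB2 and TGFB2 cells only. BMP4 replicate 1, with the highest sum of its group, had 117 TPM of Col6a1, and BMP4 replicate 2 had 118. None of the 5 was at 0 counts over a whole group. Notch3 had a log2 difference of 0.80 ± 0.45 between BMP4 and NT cells (SE, adjusted p = 0.382, edgeR). Kcnj8, a potassium channel gene, rose there by 2.07 ± 0.53 (adjusted p = 0.0455) at group means of at most 1.06 CPM, and 15 of 20 alternative analyses did not call it (adjusted p up to 0.167). Rgs5, Abcc9 and Cspg4 were not called there, with log2 differences of 0.53 ± 0.49, -0.22 ± 0.53 and 0.25 ± 0.62 (adjusted p = 0.641, 0.89 and 0.894). Notch3 had group means of 75.6 to 129 CPM and the other markers of at most 3.94, so the sum is close to a reading of 1 gene. Whether pericytes were present, and their part in the collagen VI values, was not tested.

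Adipocyte markers summed to no more than 4.61 TPM in any library, endothelial markers to no more than 2.41 and leukocyte markers to no more than 13.3. Basal markers summed to 425 to 990 TPM in BMP4-TGFB2 cells, 941 to 1326 in BMP4 cells, 357 to 582 in TGFB2 cells and 183 to 410 in NT cells. Nearly all of that was Krt14, a keratin of basal epithelium, which rose in BMP4 cells by 1.99 ± 0.36 on the log2 scale (SE, adjusted p = 0.00967, edgeR), a call lost without NT replicate 2 or without the replicate 1 libraries (adjusted p up to 0.079). The median of the 5 tested basal markers in BMP4 cells was 0.12. The basal sum moved with the collagen VI pair in BMP4 cells, and its part in the result was not tested. Schwann cell markers, mostly Sox10, summed to 16.4 to 26.5, 43 to 74.8, 26.7 to 36.7 and 81.8 to 96.2 TPM in the same order of groups.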

How the data were processed

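Poly(A) RNA was sequenced in 12 libraries in 4 groups of 3, as paired reads from a kit that does not mark strand, per the labels' protocols. The authors deposited estimated counts per gene and TPM per gene. STAR 2.7.5b, Salmon 1.2.1, bcl2fastq 2.17 and the build GRCm38.p6 are named in the submitters' processing notes, with no settings stated. A table of 12 normalized columns was not used. All libraries are of 1 sequencing batch, per the deposited sample sheet.

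The deposited estimated counts were rounded to whole numbers (82.9% were whole) and tested with edgeR 4.0.16 (R 4.3.3): filterByExpr with a minimum count of 10, TMM factors, a robust quasi-likelihood fit over all 12 libraries and Benjamini-Hochberg adjustment over 15319 genes, with calls at an adjusted p under 0.05. Levels per length are the TPM the authors deposited. Gene positions are from GENCODE, where 53307 of 54347 gene IDs matched with their version, and upstream sequences from RefSeq. Alternatives were DESeq2 1.42.0, limma 3.58.1 and changes of filter, scaling, samples and block.

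Same-numbered libraries deviated together in each of 3 pairs for BMP4 and NT cells (correlations 0.162 to 0.444), BMP4-TGFB2 and BMP4 cells (0.146 to 0.348) and BMP4-TGFB2 and TGFB2 cells (0.229 to 0.505). The numbers may therefore pair the libraries, which the labels do not state. The main model leaves the numbers out, so its p-values ignore any pairing, and the replicate block is given as an alternative. The members and gene lists were chosen with earlier results of these data known. Besides the chains, the text names up to 4 genes per list with the smallest p over the contrasts tested for the chains and list genes above 100 TPM in every library, 8 genes nearest in profile to Col6a1 and to Col6a2, and neighbours of the loci. Atoh8 and marker genes fall outside that rule. Intervals cover the model's error, and the limit of 3 counts covers counting error only.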

Additional observations from a re-analysis of the deposited data

How the results depend on the processing

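The chains' log2 differences and makeup, the counts of genes called, the list counts, the called genes given values in the text and the nearest genes were recomputed under up to 20 alternatives. The collagen ranks, marker sums and counts, and motif matches were not. Of 2712 values, 2375 stayed the same, 189 lost a call, 1 gained one, 142 moved further and 5 reversed. Same meant an unchanged direction and side of the threshold, or, without a test, a move under 1 SD. For counts of genes it meant staying within a fixed fold of the main count. Genes other than the chains entered only where the main fit called them, so they could lose a call but not gain one. All 11 changes of sign among 1956 log2 differences were of Col6a3, 6 of them in contrasts without a test for the chains. The genes outside the chains had all been called, which makes a change of sign less likely. Its difference between BMP4-TGFB2 and TGFB2 cells was -0.01 with limma on log2(TPM + 0.5). No alternative was added after the data were seen. The rise of Col6a2 in BMP4-TGFB2 against NT cells was 2.62 without a filter on low counts, past the threshold no longer. The difference of Col6a1 between BMP4-TGFB2 and TGFB2 cells, 1.93, was called by DESeq2. The number of genes called between BMP4-TGFB2 and TGFB2 cells was 51 with DESeq2, 9 without the filter, 2 with those groups alone, 10 with the replicate block and 2 with limma on log2(TPM + 0.5). For BMP4 against NT it was 1569 with DESeq2 and 2364 with the block, for BMP4-TGFB2 against BMP4 2219 and 3446, and for the interaction 298 and 311, and there 79 without the filter, 12 with limma voom and 5 without the replicate 1 libraries.

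For TGFB2 and NT cells and for BMP4-TGFB2 and NT cells only 2 of 3 same-numbered pairs correlated above 0.1 (lowest 0.08 and 0.026). If the numbers pair the other groups they pair these too. Over all pairs of groups every same-numbered correlation was positive, from 0.026 to 0.505, but no label states a pairing, so it is not settled. For TGFB2 against NT and BMP4-TGFB2 against NT the replicate block moved the counts of calls to 5764 and 6328. It changed no call of a tested chain.

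With single libraries left out the counts ran from 0 to 1 for BMP4-TGFB2 against TGFB2, 2018 to 3630 for TGFB2 against NT, 2523 to 4200 for BMP4-TGFB2 against NT, 296 to 758 for BMP4 against NT, 653 to 1612 for BMP4-TGFB2 against BMP4 and 0 to 28 for the interaction. The lowest count came without NT replicate 2 in each of the 3 contrasts with NT cells. The log2 rise of Col6a2 in BMP4-TGFB2 against NT cells ran from 1.9 to 3.07, the log2 difference of Col6a3 from -0.94 to 1.47 in BMP4-TGFB2 against TGFB2 cells and from -0.1 to 1.57 in TGFB2 against NT cells, and its interaction from -1.56 to 0.85. A pseudocount of 0.5 TPM moved the ratio of Col6a2 to Col6a1 to 0.418 in TGFB2 and 0.372 in NT cells, and the share of Col6a3 to 3.41%, 8.11% and 9.19% in BMP4-TGFB2, TGFB2 and NT cells. Merged exon lengths moved the ratio to 0.162, 0.176, 0.173 and 0.137 in BMP4-TGFB2, BMP4, TGFB2 and NT cells. The cause of these changes was not tested. Depth limits Col6a3 to Col6a6, at 0 to 79 counts a library.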
